A study of Mus musculus with 16 samples.

Results

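MAP kinase phosphatases and SPRED proteins, 2 kinds of brake on the ERK, p38 and JNK kinases, were followed in mouse blood neutrophils with and without the lymphotoxin β receptor (LTβR). Their 10 genes are Dusp1, Dusp2, Dusp4, Dusp5, Dusp6, Dusp7, Dusp10, Dusp16, Spred1 and Spred2, out of 23337 gene symbols in the count table, and all 10 were listed there. The group was chosen by the CPM of Dusp6, which was lower in stimulated neutrophils of these same libraries, and the other 9 genes were added by family to show whether that decrease was shared. Values of Dusp6 between treatment labels are therefore given as a description without a test, and the list as a whole was assembled with results of these data known. Of the 10 genes, 8 passed the filter on low counts and were tested, while Spred1 and Spred2 did not pass.

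The cells came from the blood of 8 week old C57/Bl6 mice by magnetic negative selection. LTβRΔN mice (Ltbr fl/fl x Mrp8-Cre) delete the floxed receptor gene through a Cre driven by the Mrp8 promoter, which is active in the neutrophil lineage, and controls were littermates. RNA-Seq libraries of total RNA were available from 3 unstimulated and 4 stimulated control samples and from 4 unstimulated and 5 stimulated LTβRΔN samples. The treatment protocol gives a culture of 2 h with TNF (100 ng/ml), IL-6 (50 ng/ml) and GM-CSF (100 ng/ml), in which soluble LIGHT (500 ng/ml), a ligand of LTβR, was either added or left out. The design text of the series instead contrasts culture with and without the cytokines. Groups are named here by their label alone, stimulated or unstimulated, since what separated them is described in these 2 ways. Nothing in the labels says how many mice stood behind a library, so p-values measure the spread between libraries.

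ERK, p38 and JNK are MAP kinases, which relay signals from cytokine and pathogen receptors and are switched on by phosphorylation of a threonine and a tyrosine in their activation loop. The MAP kinase phosphatases, encoded by Dusp genes, remove both phosphates. Dusp1, Dusp2, Dusp4 and Dusp5 encode nuclear enzymes, Dusp6 and Dusp7 cytoplasmic enzymes that prefer ERK, and Dusp10 and Dusp16 enzymes that prefer p38 and JNK. SPRED proteins act further upstream, where they hold back the activation of RAF by RAS. Many of these brakes are themselves transcribed when the pathway is active, which makes them feedback regulators, and in neutrophils the MAP kinases take part in cytokine production, migration and the oxidative burst.

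The genes lie apart in the genome. On GRCm38.p6, by RefSeq, Dusp6 spans chromosome 10 from 99263231 to 99267489, Dusp2 chromosome 2 from 127336159 to 127338377, Dusp5 chromosome 19 from 53529145 to 53541809 and Dusp1 chromosome 17 from 26505591 to 26508472. The submitters' processing notes name mm10, which is the same assembly. The stretches upstream of the start of these 4 genes are shown because the most abundant member and the 3 members that differed between treatment labels belong to them, and each is written 5′ to 3′ on the strand of its gene. Capitals mark a match to a binding motif found on either strand. For Dusp1 and Dusp5 the bases that GENCODE M21 counts as exon of the gene were left off the 3′ end.

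Dusp1, chr17:26508520-26508722, minus strand: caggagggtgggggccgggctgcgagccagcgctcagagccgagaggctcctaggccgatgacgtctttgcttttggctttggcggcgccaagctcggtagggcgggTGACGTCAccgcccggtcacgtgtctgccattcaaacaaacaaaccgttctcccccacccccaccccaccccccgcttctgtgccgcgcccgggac
Dusp2, chr2:127335909-127336158, plus strand: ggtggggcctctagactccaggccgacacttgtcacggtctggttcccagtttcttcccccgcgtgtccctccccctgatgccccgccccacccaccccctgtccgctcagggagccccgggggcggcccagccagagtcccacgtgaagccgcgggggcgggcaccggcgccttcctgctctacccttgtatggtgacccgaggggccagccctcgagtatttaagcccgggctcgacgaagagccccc
Dusp5, chr19:53528895-53529108, plus strand: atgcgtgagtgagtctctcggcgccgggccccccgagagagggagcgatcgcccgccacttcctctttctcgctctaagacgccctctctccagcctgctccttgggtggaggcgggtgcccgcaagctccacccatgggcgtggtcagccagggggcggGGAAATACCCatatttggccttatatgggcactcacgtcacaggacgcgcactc
Dusp6, chr10:99262981-99263230, plus strand: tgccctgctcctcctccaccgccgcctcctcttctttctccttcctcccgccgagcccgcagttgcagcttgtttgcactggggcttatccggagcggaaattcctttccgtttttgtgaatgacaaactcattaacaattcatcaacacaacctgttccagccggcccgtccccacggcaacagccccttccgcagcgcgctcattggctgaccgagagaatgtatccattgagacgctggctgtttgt

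Windows of 250 bases were matched for 9 of the 10 genes in the RefSeq promoter table and searched on both strands for 5 motifs. Dusp1 held the cyclic AMP response element TGACGTCA, starting 143 bases upstream of the RefSeq start, a motif found in 1.56% of 32536 promoter windows of that length. Dusp5 held a match to a loose form of the NF-κB motif, searched as GGG, any 2 bases, TT, any base and CC. The match reads GGAAATACCC on the plus strand and starts 90 bases upstream of the RefSeq start of Dusp5. Such a match was held by 4.11% of the windows. The AP-1 motif TGANTCA (6.73% of windows), the ETS motif CCGGAA (12.1%) and the STAT motif TTCNNNGAA (7.04%) were in none of the 9 windows. No motif overlapped another, and the windows of Dusp2 and Dusp6 held none of the 5.

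Library totals lay between 1094335 counts in unstimulated LTβRΔN replicate 2 and 11932653 in unstimulated control replicate 1. Levels are given as CPM, the count scaled to a common library total after correction by a TMM factor. The targeted gene Ltbr had 116 and 109 CPM in unstimulated and stimulated control and 8.22 and 8.65 CPM in LTβRΔN neutrophils. Markers of neutrophils summed to between 42500 and 70600 CPM per library and those of B cells to at most 1.60 CPM. Markers of T cells lay between 4.30 and 17.1 CPM, of monocytes between 341 and 563 CPM, of eosinophils between 0.775 and 11.3 CPM and of red blood cells between 0 and 6.08 CPM. Cd3d had the largest group means of the T cell markers, from 4.66 to 7.94 CPM. Cd3e had no counts in any library, and Lck had counts only in unstimulated LTβRΔN libraries. The eosinophil sum was mostly Ccr3, with group means from 2.35 to 6.15 CPM, while Prg2 and Epx had no counts. The monocyte sum was nearly all Csf1r, with group means from 262 to 346 CPM, and Ly6c2, from 113 to 126 CPM. The other monocyte markers, Ccr2, Cx3cr1 and Ms4a6c, had group means of at most 0.348, 0.0426 and 0.623 CPM. Platelet markers reached 194 CPM and markers of immature neutrophils 753 CPM, both in stimulated control replicate 3, against at most 23.2 and 229 CPM in the other groups. Of the other stimulated control libraries, replicate 1 had 42.7 CPM of platelet markers and replicate 4 had 313 CPM of immature neutrophil markers. The immature sum came from Camp, Ltf and Ngp alone, since Elane and Mpo had no counts in any library. Without stimulated control replicate 3 the log2 fold changes of Dusp2 and Dusp5 in control neutrophils were 3.50 and -1.61, both still called.

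Dusp6, which encodes the cytoplasmic ERK phosphatase MKP-3, was lower in every stimulated library than in any unstimulated one. The unstimulated control libraries had 826, 799 and 759 CPM and the stimulated ones 187, 162, 147 and 220 CPM. In LTβRΔN neutrophils the values were 604, 759, 792 and 764 CPM without and 199, 146, 145, 157 and 214 CPM with stimulation. The lowest unstimulated value of all, 604 CPM in LTβRΔN replicate 1, was still far above the highest stimulated value. Group means were 794 ± 33.7 (n = 3, SD) and 179 ± 32.04 (n = 4, SD) CPM in control and 730 ± 85.1 (n = 4, SD) and 172 ± 32.4 (n = 5, SD) CPM in LTβRΔN neutrophils, which is 4.44-fold and 4.24-fold lower in the stimulated groups. The log2 fold changes were -2.15 ± 0.159 (SE, the standard error) and -2.08 ± 0.142 (SE).

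Dusp2, which encodes the nuclear phosphatase PAC-1 of activated blood cells, moved the opposite way. Its levels were 78.4, 91.0 and 105 CPM in unstimulated control libraries and 1043, 1195, 972 and 863 CPM in stimulated ones. LTβRΔN libraries had 146, 89.6, 155 and 146 CPM without stimulation and 651, 1139, 1019, 862 and 726.4 CPM with it. No stimulated library overlapped an unstimulated library. Dusp2 rose from 91.5 ± 13.4 (n = 3, SD) to 1018 ± 139 (n = 4, SD) CPM in control neutrophils, 11.1-fold, with a log2 fold change of 3.48 ± 0.214 (SE, edgeR adjusted p = 5.25e-11). In LTβRΔN neutrophils it rose from 134 ± 29.9 (n = 4, SD) to 880 ± 202 (n = 5, SD) CPM, 6.56-fold, with a log2 fold change of 2.70 ± 0.180 (SE, edgeR adjusted p = 1.91e-10).

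Dusp5, whose product is a nuclear phosphatase specific for ERK, was lower in stimulated libraries like Dusp6, 2.94-fold in control and 4.44-fold in LTβRΔN neutrophils. Unstimulated control libraries had 107, 67.5 and 91.1 CPM and stimulated ones 9.05, 34.6, 33.5 and 43.2 CPM. Unstimulated LTβRΔN libraries lay close together at 112, 107, 119 and 107 CPM, and stimulated ones had 23.0, 14.6, 31.7, 35.9 and 20.1 CPM. Again the treatment groups did not overlap in either genotype, and the share of all tested genes without overlap was not counted. The mean fell from 88.4 ± 19.7 (n = 3, SD) to 30.1 ± 14.7 (n = 4, SD) CPM in control neutrophils, with a log2 fold change of -1.56 ± 0.344 (SE, edgeR adjusted p = 0.00734). In LTβRΔN neutrophils it fell from 111 ± 5.48 (n = 4, SD) to 25.1 ± 8.65 (n = 5, SD) CPM, with a log2 fold change of -2.18 ± 0.322 (SE, edgeR adjusted p = 5.96e-05). The call in control neutrophils was lost without unstimulated replicate 1, where the log2 fold change was -1.40 (edgeR adjusted p = 0.0552), and in a fit of the control groups alone (-1.56, edgeR adjusted p = 0.0788).

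**Figure D1:**
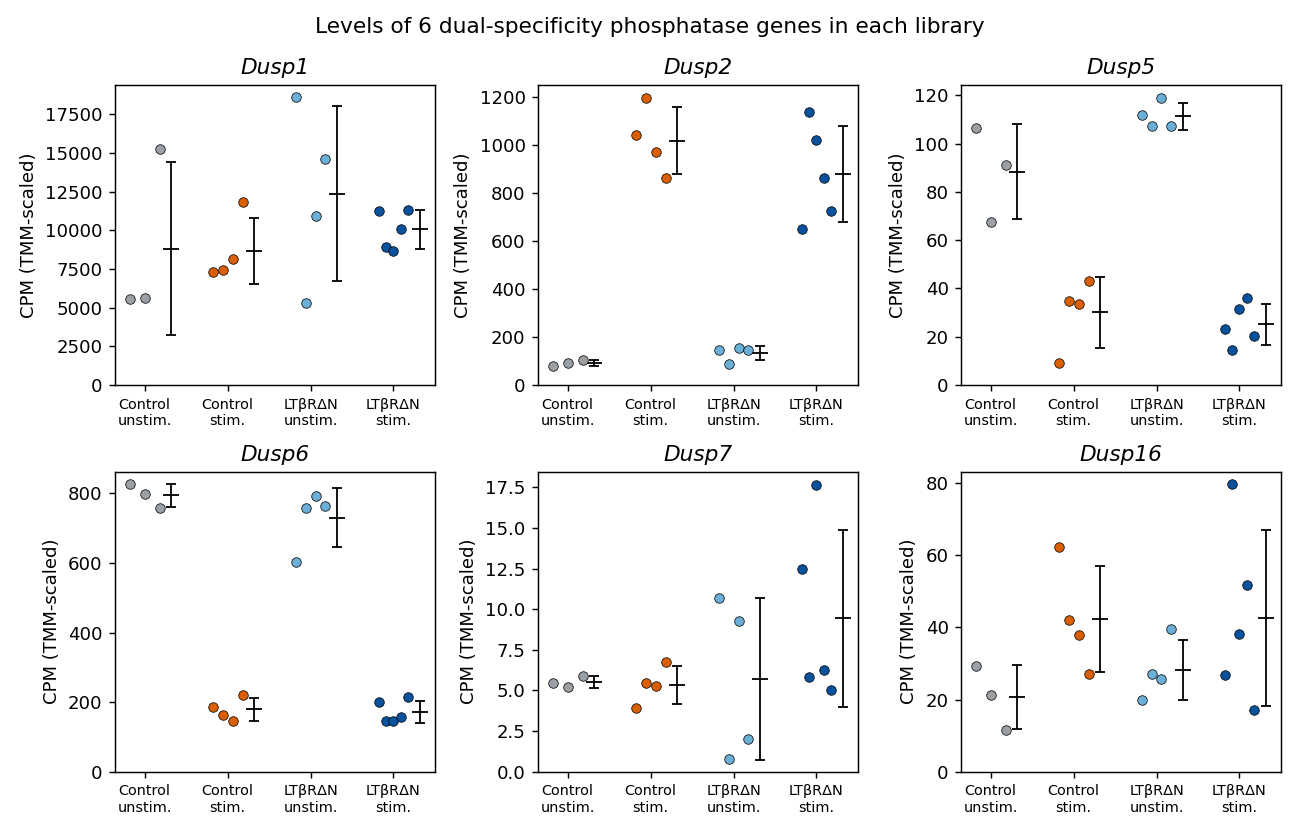
Level of 6 phosphatase genes in CPM (TMM-scaled, linear axes from 0, 1 scale per gene) in each of the 16 libraries, by genotype and treatment label, where each point is a library and the bar gives the mean ± SD. The groups separate by label for Dusp2, Dusp5 and Dusp6, while Dusp1 runs from 5315 to 18624 CPM within unstimulated LTβRΔN neutrophils alone. The share of all tested genes that separate by label was not counted, and the decrease of Dusp6 chose these genes.

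The index read of the libraries was not spread evenly over the labels. All 9 stimulated libraries carried the index S521, all unstimulated LTβRΔN libraries carried S520, and of the unstimulated control libraries replicates 1 and 2 carried S520 and replicate 3 carried S521. Index and treatment label thus cannot be told apart in LTβRΔN neutrophils. Within S521, unstimulated control replicate 3 can be set beside the 4 stimulated control libraries. It had 105 CPM of Dusp2 against 863 to 1195 CPM and 91.1 CPM of Dusp5 against 9.05 to 43.2 CPM, a comparison of 1 library with 4 that was not tested. With index as a term in the model, which is estimated from the 3 unstimulated control libraries alone, Dusp2 kept its call, with log2 fold changes of 3.28 (edgeR adjusted p = 2e-06) and 2.38 (edgeR adjusted p = 0.00075), and Dusp5 lost it, at -1.60 (edgeR adjusted p = 0.129) and -2.25 (edgeR adjusted p = 0.147).

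Dusp1, the immediate early gene of MKP-1 and a target of glucocorticoids and cell stress, was by far the most abundant member and took up 0.607 to 1.92% of all counts of a library. Unstimulated control libraries had 5571, 5615 and 15261 CPM, and stimulated ones 7299, 7424, 8158 and 11821 CPM. In LTβRΔN neutrophils the values were 18624, 5315, 10902 and 14585 CPM without stimulation. The 5 stimulated LTβRΔN libraries were closer together, at 11261, 8952, 8661, 10085 and 11314 CPM. Groups overlapped in both genotypes, the log2 fold changes with stimulation were -0.02 ± 0.317 (SE, edgeR adjusted p = 0.994) in control and -0.30 ± 0.278 (SE, edgeR adjusted p = 0.779) in LTβRΔN neutrophils, and no difference was detectable over this spread. Unstimulated control replicate 3 set the estimate in control neutrophils, since without it the log2 fold change was 0.63 (edgeR adjusted p = 0.465). With index as a term the estimates of Dusp1 moved to -0.81 ± 0.351 (SE, edgeR adjusted p = 0.569) in control and -1.75 ± 0.449 (SE, edgeR adjusted p = 0.0811) in LTβRΔN neutrophils, neither of them called.

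Dusp4, the nuclear phosphatase MKP-2, was near the limit of these libraries, with 100 counts in all 16 together and 49 of them in stimulated control replicate 1. It was at 0 in 7 libraries and passed the filter on low counts through few others. The means were 0.374 and 2.09 CPM in unstimulated and stimulated control and 0.493 and 0.820 CPM in LTβRΔN neutrophils. A difference between labels could not be detected at this depth, with log2 fold changes of 2.48 ± 1.98 (SE, edgeR adjusted p = 0.779) and 0.55 ± 1.71 (SE, edgeR adjusted p = 0.962).

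Dusp7, which encodes the closest relative of the Dusp6 product, showed no detectable difference between labels. Control libraries had between 5.21 and 5.90 CPM without and between 3.92 and 6.74 CPM with stimulation. LTβRΔN libraries ranged from 0.800 to 10.7 CPM and from 5.04 to 17.6 CPM. The log2 fold changes were -0.05 ± 0.712 (SE, edgeR adjusted p = 0.994) and 0.66 ± 0.646 (SE, edgeR adjusted p = 0.797), with standard errors that leave room for a change of either sign.

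Of the phosphatases of p38 and JNK, Dusp16 (MKP-7) had 11.7, 21.3 and 29.2 CPM in unstimulated control libraries in rising order, and from 27.1 to 62.3 CPM in stimulated ones. LTβRΔN libraries had 19.95 to 39.6 CPM and 17.05 to 79.7 CPM. The groups overlapped in both genotypes. Its log2 fold changes of 1.02 ± 0.422 (SE, unadjusted p = 0.0238, edgeR adjusted p = 0.304) and 0.61 ± 0.374 (SE, edgeR adjusted p = 0.557) did not pass, nor did the estimates of 1.86 and 1.73 with index as a term (edgeR adjusted p of 0.342 and 0.897). Dusp10 (MKP-5) had 170 counts in all libraries, between 0 and 4.74 CPM, and log2 fold changes of 0.89 ± 1.46 (SE, edgeR adjusted p = 0.940) and -1.32 ± 1.35 (SE, edgeR adjusted p = 0.806).

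The SPRED genes were hardly counted in these cells. Spred1 had 17 counts over all libraries, of which 12 lay in 1 library, stimulated LTβRΔN replicate 4, at 5.39 CPM. It was at 0 in all 3 unstimulated control and all 4 unstimulated LTβRΔN libraries, which allows levels of up to 0.114 and 0.131 CPM over those groups by a limit of 3 counts that covers counting error alone. Spred2 had 71 counts in 6 libraries, with at most 2.77 CPM. No SPRED level was compared between groups.

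Among the 7 tested genes other than Dusp6, 1 was called higher and 1 lower with stimulation in control neutrophils, against 2.82% and 0.662% of all 9213 tested genes. The count was the same in LTβRΔN neutrophils, Dusp2 higher and Dusp5 lower, against 2.98% and 0.749% of all genes. DESeq2 also called 2 of the 7 in each genotype. The list was assembled because of the stimulation contrast, so nothing is read from these counts against the background. Scaling by library totals alone moved the median log2 fold change of all genes from -0.02 to -0.27 in control and from -0.03 to -0.21 in LTβRΔN neutrophils. Dusp6 and Dusp5 remained below that median and Dusp2 above it. Their log2 fold changes, without the median taken off, were -2.40, -1.81 and 3.23 in control neutrophils.

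**Figure D2:**
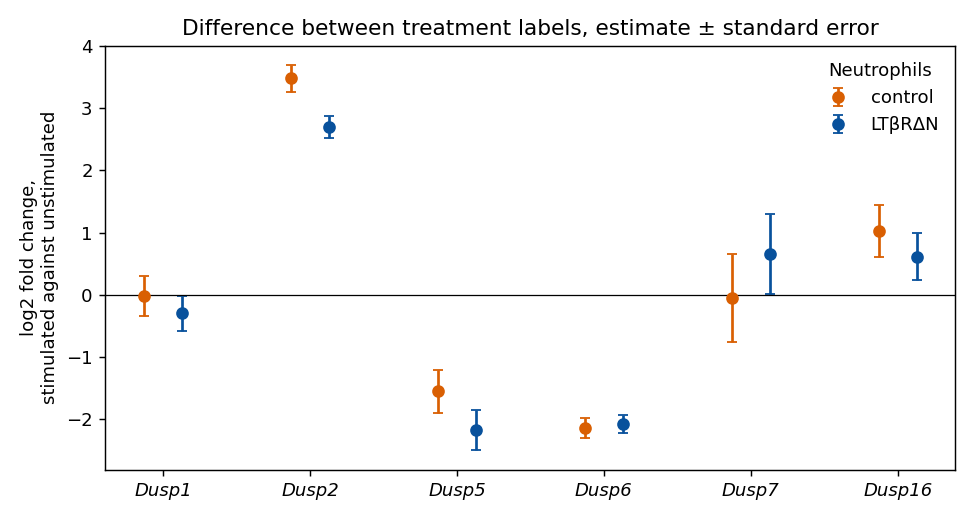
Log2 fold change of stimulated against unstimulated neutrophils (y axis) for 6 phosphatase genes (x axis), with points for the edgeR estimate and bars for ± 1 standard error, in control and LTβRΔN neutrophils. Dusp2 lies at 3.48 and 2.70, Dusp5 at -1.56 and -2.18 and Dusp6 at -2.15 and -2.08. The bars of Dusp1 and Dusp7 in control neutrophils cross 0. Those of Dusp16 in both genotypes, and of Dusp1 and Dusp7 in LTβRΔN neutrophils, do not cross 0, yet none of these was called.

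Compared per length of exon, Dusp1 stood at 2663 CPM per kb in unstimulated control neutrophils, rank 16 of 8343 genes with a known length, and at rank 25, 14 and 23 in stimulated control, unstimulated LTβRΔN and stimulated LTβRΔN neutrophils. In unstimulated control neutrophils Dusp6 followed with 253.7 CPM per kb (rank 196), and then Dusp2 with 45.7 (rank 857) and Dusp5 with 35.7 CPM per kb (rank 1054). The libraries of Dusp2, from 39.1 to 52.5 CPM per kb, and of Dusp5, from 27.3 to 43.1 CPM per kb, overlapped, so these neighbours do not differ beyond their spread. In stimulated control neutrophils Dusp2 reached 508 CPM per kb (rank 114) and lay above Dusp6 with 57.2 CPM per kb (rank 734), every library of one above every library of the other. The same exchange was measured in LTβRΔN neutrophils, where Dusp2 went from 66.9 to 439 and Dusp6 from 233 to 54.98 CPM per kb. The nuclear phosphatase was the lower of the pair without and the higher with stimulation in both genotypes. The decrease of Dusp6 chose this group of genes, so the exchange is given as a description without a test. Dusp16 lay between 2.66 and 5.47, Dusp7 between 1.59 and 2.81, and Dusp10 and Dusp4 below 1 CPM per kb in every group mean.

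**Figure D3:**
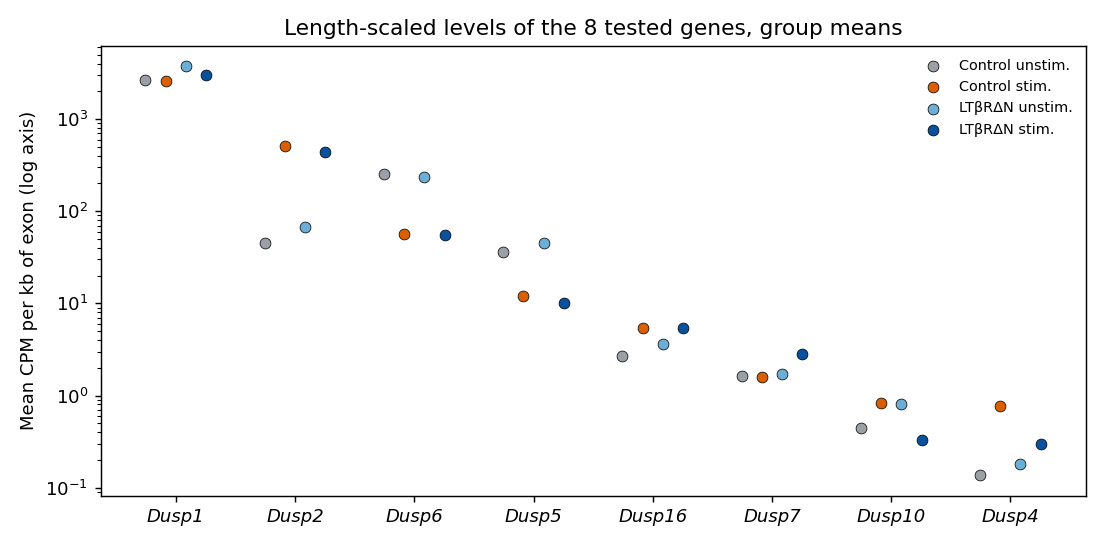
Group means of CPM per kb of exon (y axis, log scale) for the 8 tested genes (x axis), with 1 point per group of genotype and treatment label. Dusp1 is highest in all 4 groups, and Dusp2 and Dusp6 change places between labels, from 45.7 and 253.7 to 508 and 57.2 CPM per kb in control neutrophils. The exchange is a description, since the decrease of Dusp6 chose these genes.

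The genotypes were compared within each label to see whether loss of LTβR moved these genes. None of the 8 was called between LTβRΔN and control neutrophils by edgeR or by DESeq2, against 0.0217% of all genes called by edgeR in unstimulated and 0.0217% in stimulated neutrophils. At an unadjusted p under 0.05, 1 of 8 differed without and 0 of 8 with stimulation, where 2.8% and 6.41% of all genes did. That gene was Dusp2, higher in unstimulated LTβRΔN neutrophils by 0.57 on the log2 scale (SE 0.192, unadjusted p = 0.00702, edgeR adjusted p = 1), with the LTβRΔN replicate of 89.6 CPM inside the control range. Dusp6 differed by -0.12 ± 0.157 (SE) without and -0.06 ± 0.141 (SE) with stimulation, neither called. Dusp1 differed by 0.49 ± 0.321 (SE; 1.14 with index as a term, not called) and 0.21 ± 0.280 (SE), and Dusp5 by 0.33 ± 0.345 (SE) and -0.29 ± 0.321 (SE). The unstimulated Dusp5 values of the genotypes did not overlap, with 107.2 CPM as the lowest in LTβRΔN and 106.6 CPM as the highest in control neutrophils, a gap far smaller than the spread.

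The response to the label was also compared between genotypes as an interaction, the log2 fold change in LTβRΔN less that in control neutrophils. Of the 7 genes tested, 0 were called by edgeR and 0 by DESeq2, and 0% of all genes were called by edgeR. Dusp2 was the 1 gene at an unadjusted p under 0.05, with an interaction of -0.78 ± 0.251 (SE, unadjusted p = 0.00511, edgeR adjusted p = 0.9999) that did not pass, and 3.71% of all genes had an unadjusted p under 0.05. The interaction was -0.63 ± 0.471 (SE) for Dusp5 and -0.27 ± 0.423 (SE) for Dusp1, while Dusp6 had 0.06 ± 0.211 (SE), given as a description.

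The genes whose log2 CPM most resembled that of Dusp6 over the 16 libraries were Osgin1 (Pearson r = 0.967), Stk17b (0.960), Nfe2 (0.954), Pnrc2 (0.948) and Arrdc3 (0.933). Osgin1, an oxidative stress response gene, had mean levels of 743 and 240 CPM in unstimulated and stimulated control and 797 and 253 CPM in LTβRΔN neutrophils. Dusp5 came at rank 32 of the tested genes with r = 0.856, and Dusp2 had r = -0.982. These coefficients describe libraries that fall into 2 clusters by label and share their scaling, and carry no test. With the group means taken off, r with Dusp6 was -0.08 for Dusp5 and -0.60 for Dusp2.

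Kinases that these phosphatases act on were present in the same libraries. Mapk3 (ERK1) had 163 and 178 CPM in unstimulated and stimulated control neutrophils, and 180 and 180 CPM in LTβRΔN neutrophils. Mapk14, which encodes p38α, had group means from 312 to 364 CPM, and Mapk8, which encodes JNK1, from 1.82 to 3.96 CPM. None of these 3 was called with stimulation in either genotype.

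Of the list of the ERK cascade upstream of and around these kinases, 18 of 19 genes were tested. Of these, 1 was called higher in control and 2 in LTβRΔN neutrophils, with none lower. Beside 2.82% and 2.98% of all tested genes called higher, nothing is read from counts this small. Map3k8, the kinase TPL-2 that activates the ERK kinases downstream of TNF and Toll-like receptors, rose from 33.8 ± 11.5 (n = 3, SD) to 177 ± 20.4 (n = 4, SD) CPM in control neutrophils, with a log2 fold change of 2.40 ± 0.279 (SE, edgeR adjusted p = 1.78e-06). In LTβRΔN neutrophils it rose by 1.82 on the log2 scale (SE 0.240, edgeR adjusted p = 1.23e-05), a call that was lost with index as a term, where the log2 fold change was 1.28 (edgeR adjusted p = 0.586). Ptpn11, which encodes the tyrosine phosphatase SHP2 needed for RAS activation, was called in LTβRΔN neutrophils, at 2.96 ± 2.88 (n = 4, SD) and 14.1 ± 2.27 (n = 5, SD) CPM with a log2 fold change of 2.47 ± 0.581 (SE, edgeR adjusted p = 0.0120). That call was lost without unstimulated LTβRΔN replicate 1, 3 or 4, with edgeR adjusted p of 0.0512, 0.0651 and 0.0696, and with index as a term (3.11, edgeR adjusted p = 0.645). The median log2 fold change of the list was 0.06 in control and 0.04 in LTβRΔN neutrophils.

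In the p38 and JNK cascade, 16 of 18 genes were tested and 1 was called, higher in both genotypes. This was Mapkapk2, the kinase MK2 through which p38 stabilises cytokine mRNA, with 201 ± 70.9 (n = 3, SD) and 744 ± 127 (n = 4, SD) CPM in control neutrophils and a log2 fold change of 1.88 ± 0.210 (SE, edgeR adjusted p = 9.82e-07). In LTβRΔN neutrophils its log2 fold change was 1.19 ± 0.181 (SE, edgeR adjusted p = 8.99e-05). The median of this list was 0.10 and 0.07. Beside 2.82% and 2.98% of all tested genes called higher, nothing is read from its 1 call.

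Other brakes on the pathways gave no calls. Of 17 further phosphatases 9 were tested, and of 16 further regulators of RAS and ERK 11 were tested, and edgeR called 0 of either list in either genotype. Beside 0.662% and 0.749% of all genes called lower, nothing is read from 0 calls in lists this short. The median log2 fold changes were 0.68 and -0.06 for the phosphatases, whose genes were mostly near 0 counts, and -0.03 and -0.003 for the regulators. Dusp3, a small phosphatase of ERK and JNK, had group means between 0.262 and 1.79 CPM, and Dusp14 was at 0 in every library. Spry2, a Sprouty inhibitor of RAS and RAF signalling, was the one Sprouty gene with a sizeable level, at 26.3 ± 9.33 (n = 3, SD) and 34.6 ± 8.98 (n = 4, SD) CPM in control and 19.5 ± 10.7 (n = 4, SD) and 37.3 ± 7.39 (n = 5, SD) CPM in LTβRΔN neutrophils, and was not called. Spry1 had counts in 1 library, Spry4 in 1 library, and Spry3 and Spred3 in none.

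Of 13 genes known as transcriptional outputs of ERK, 9 were tested and 5 were called higher with stimulation in both genotypes, with none lower. The other 4 were not called in either genotype, and their estimates lay on both sides of 0. Of all tested genes, 2.82% were called higher in control and 2.98% in LTβRΔN neutrophils. Fos and Etv5, named after their values were seen, had estimates below 0 in both genotypes. Fos, an AP-1 subunit of the immediate early response, had 3664 ± 2663 (n = 3, SD) and 1663 ± 922 (n = 4, SD) CPM in unstimulated and stimulated control neutrophils, at -1.14 ± 0.421 (SE, edgeR adjusted p = 0.212) on the log2 scale. In LTβRΔN neutrophils Fos was at -1.28 ± 0.372 (SE, edgeR adjusted p = 0.0577). Etv5, an ETS factor with group means of at most 1.67 CPM, was at -3.13 ± 1.78 (SE) and -2.46 ± 1.73 (SE). Egr1 and Egr2, zinc finger factors of the immediate early response, had log2 fold changes of 3.08 and 2.85 in control and 2.78 and 2.67 in LTβRΔN neutrophils. Ier3 rose from 185 ± 57.6 (n = 3, SD) to 3814 ± 458 (n = 4, SD) CPM in control neutrophils, a log2 fold change of 4.37 ± 0.258 (SE, edgeR adjusted p = 2.68e-11), and by 4.12 in LTβRΔN neutrophils. Ier2 and Phlda1 rose by 1.44 and 1.94 in control and by 1.03 and 1.34 in LTβRΔN neutrophils on the log2 scale. The call of Phlda1 in LTβRΔN neutrophils was lost without unstimulated LTβRΔN replicate 1 or 3 (edgeR adjusted p of 0.0626 and 0.0667). The median of the tested genes of this list was 2.16 and 2.00, beside -0.02 and -0.03 for all tested genes. The list was chosen with earlier results of these data known, so nothing is read from its count of calls or its median. With the library index as a term, Ier2 (0.93, edgeR adjusted p = 0.304) and Phlda1 (1.17, edgeR adjusted p = 1) lost their calls in LTβRΔN neutrophils at estimates close to those without it, and Phlda1 also in control neutrophils (1.83, edgeR adjusted p = 0.201).

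**Figure D4:**
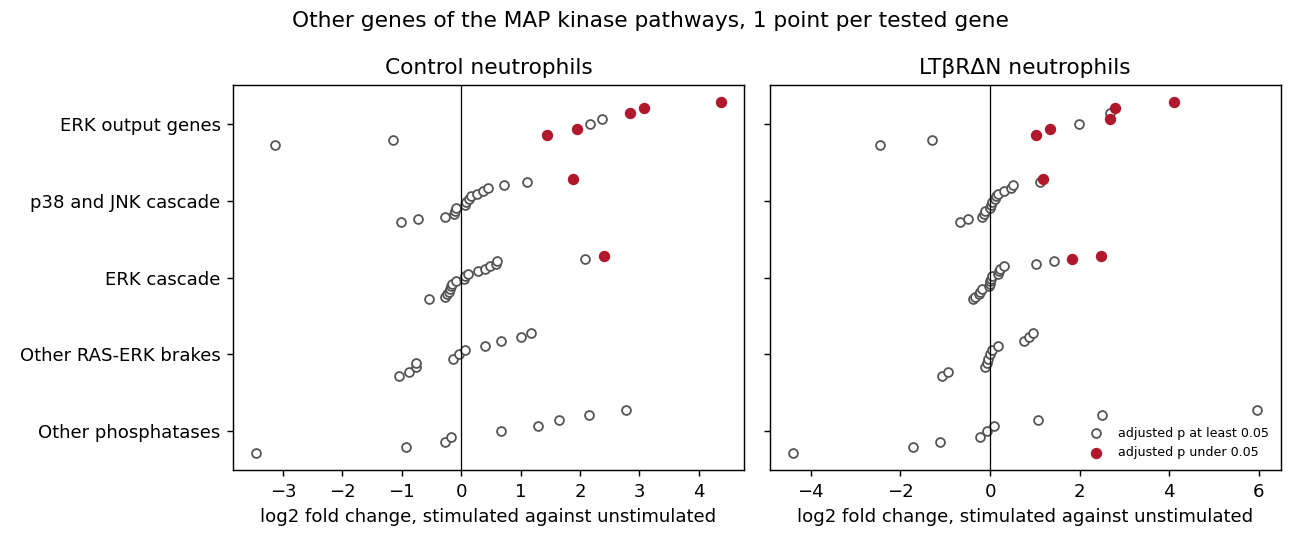
Log2 fold change of stimulated against unstimulated neutrophils (x axis) for each tested gene of 5 lists (y axis), in control (left) and LTβRΔN neutrophils (right), where filled points passed an edgeR adjusted p under 0.05. Filled points lie only on the higher side, with 5 in the list of ERK outputs in both genotypes and none among the other phosphatases and the other brakes. Of all tested genes, 2.82% were called higher in control and 2.98% in LTβRΔN neutrophils.

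Some of the members share their locus with other genes. Dusp5 and Dusp16 overlap a gene annotated as antisense, and Dusp1 and Dusp10 overlap a protein coding gene on the other strand, Ergic1 and 1700056E22Rik, within GENCODE's span. These are overlaps of whole gene spans, and overlap of exons was not examined. For Dusp1 the GENCODE span runs from 26505590 to 26562128, while the RefSeq span ends at 26508472. Whether the counting used strand is not given in the sources used here. Whether reads of such partners were counted for a member was not tested.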

How the data were processed

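The authors deposited 1 table of raw counts, whole numbers of single-end reads per gene symbol, and the submitters' processing notes name Bowtie 1.0.0, TopHat 1.4.1, HTSeq 0.7.1 and mm10. No value in it was normalized. Of 23337 symbols, 9213 passed edgeR's filterByExpr (minimum count 10, minimum total 15). All 16 libraries were fitted with 1 coefficient per group in edgeR 4.0.16 (R 4.3.3) with TMM factors and the quasi-likelihood test, and Benjamini-Hochberg adjustment ran over all tested genes, with 0.05 as the threshold. Standard errors were derived from the estimate and its F statistic. CPM used TMM-scaled totals, and correlations used log2 CPM with a prior count of 2. Exon lengths came from GENCODE M21 and matched 90.6% of the tested symbols.

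The members and lists were chosen with earlier results of these data known. The genes named are the 10 members, called genes of the 5 pathway lists, substrates and closest relatives of the members (1 is not reported here), Ltbr, and the 5 genes most like Dusp6. The 3 other label checks, Cish, Socs3 and Nfkbia, were called higher with stimulation in both genotypes. In control neutrophils their means went from 1.01 to 435, from 1059 to 17236 and from 548 to 17526 CPM. In LTβRΔN neutrophils they went from 2.44 to 378, from 1478 to 17882 and from 612 to 17628 CPM. Which of the 2 descriptions of the treatment holds was not tested. The test was tried on simulated counts first. Library pairs of 1 group differed by 6.82 to 49.4 chi-square units per degree of freedom, so none was counted as a repeated sequencing of the same library. This check cannot show whether the libraries of a group came from separate mice. Alternatives were other scalings and filters, DESeq2 1.42.0, the compared groups alone, the library index, a replicate block, an adjusted p under 0.1, and each library left out in turn.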

Additional observations from a re-analysis of the deposited data

Results flagged for a closer look

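Among 42 groups of values examined for a library far from the rest, 2 stood out by Dixon's criterion at the 95% level, where chance gives about 2.1. Only groups of 4 or 5 libraries were examined, so unstimulated control neutrophils, with 3 libraries, were left out. Dusp1 had 5571, 5615 and 15261 CPM there. Dusp2 was at 89.6 CPM in unstimulated LTβRΔN replicate 2, against 146 CPM in the nearest of the other 3 libraries. That library also had the lowest total of all, 1094335 counts, and the part of depth in the value was not tested. Phlda1 was at 39.1 CPM in stimulated LTβRΔN replicate 4, above the other 4 libraries of its group.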

How the results depend on the processing

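Of 636 values from alternatives, 614 counted as the same. That meant the same direction and side of the threshold, or for Dusp6 a value within the standard error of the main estimate. Another 14 lost their call, 6 changed direction, and 2 values of Dusp6 moved further with their sign kept. The number of members other than Dusp6 called with stimulation was 2 in each genotype. It was 1 in control neutrophils in the fit of compared groups only and with the library index, and 1 to 2 with each library left out, where the loss came without unstimulated control replicate 1. It was 1 in LTβRΔN neutrophils with the library index. Each lost call was Dusp5. The fit with the library index held all libraries and the other fits that lost it held fewer, and the cause was not tested. The log2 fold change of Dusp1 in control neutrophils turned from -0.02 to 0.14 with the replicate block and ran from -0.28 to 0.63 over the libraries left out, above 0 without unstimulated control replicate 3 (0.63) or stimulated control replicate 1 (0.0527), 2 (0.0451) or 3 (0.00623). With the library index it was -0.81, and in LTβRΔN neutrophils Dusp1 moved from -0.30 to -1.75, its genotype difference without stimulation from 0.49 to 1.14, and Dusp16 from 1.02 to 1.86 in control and from 0.61 to 1.73 in LTβRΔN neutrophils, none of them called. The log2 fold change of Dusp7 in control neutrophils ran from -0.18 to 0.0759, turning without stimulated control replicate 1. Dusp2 lay between 3.37 and 3.59 in control and between 2.56 and 2.79 in LTβRΔN neutrophils over the libraries left out.

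The numbers in the column names are shared by 7 pairs of unstimulated and stimulated libraries. Deviations from the group means correlated at 0.0214 to 0.0694 within these pairs, under 0.1 in all 7, and 6 of 7 libraries correlated best with their own number, a hint from the data and not from the design. What the number marks is not stated, and it was not taken to pair the samples. With it as a replicate block, Dusp2 and Dusp5 had log2 fold changes of 3.50 and -1.79 in control neutrophils and 2 members were called in each genotype. Scaling by library totals changed the split of calls in control neutrophils from 260 higher and 61 lower to 201 and 272, and in LTβRΔN neutrophils from 275 and 69 to 216 and 293. With the library index 133 and 24 genes were called in control and 69 and 10 in LTβRΔN neutrophils. DESeq2 called 7 higher and 7 lower genes by genotype in stimulated neutrophils where edgeR called 1 and 1. Depth limits Dusp4, Dusp10, Spred1 and Spred2.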
